A study of Homo sapiens with 8 samples.

Results

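Mitosis is driven by cyclin B bound to the kinase CDK1. The spindle then attaches to kinetochores on each chromosome, and a checkpoint holds the anaphase-promoting complex (APC/C), the ubiquitin ligase that ends mitosis, until attachment is complete. Genes of these steps are switched on together late in the cell cycle by the MuvB complex with B-MYB (MYBL2) and FOXM1, and are repressed by the DREAM complex in arrested cells. Their transcripts are therefore widely read as a measure of proliferation in cultured epithelium. The list studied here holds 45 such genes, each grouped by its role as cell-cycle engine, checkpoint, kinetochore, spindle or cytokinesis gene. A gene counted as measured when at least 1 row of the array table carried its symbol and no other, which held for 39 of 45 genes, out of 14272 genes named this way and 18495 rows in all. CCNF, BUB1B, CENPN, KIF20A, KIF23 and KIF4A had only rows shared with another symbol and have no value here.

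The cells were PNT2, a line of immortalized human prostatic epithelium, and the study asked what the loss of the epithelial splicing regulators ESRP1 and ESRP2 changes in them. The siESRP group holds 4 samples transfected with small interfering RNA against ESRP1 and ESRP2, and the siGFP group holds 4 control samples given siRNA against green fluorescent protein. All came from the same line in the same serum-containing medium, with 1 Affymetrix exon array per sample and no time after transfection stated in the labels. Whether the samples of a group were grown and transfected separately is not stated. The p-values therefore cover the variation among these 8 samples, part or all of which may be technical.

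ESRP1 read 568, 499, 660 and 599 on the siESRP arrays, against 2232, 2527, 2617 and 2379 on the siGFP arrays (log2 difference -2.07 ± 0.10 SE, limma adjusted p = 6.58e-05). ESRP2 had no row of its own symbol alone. The epithelial markers KRT8, KRT18, KRT19, CDH1 and EPCAM were all bright, with CDH1 lowest at means of 3042 in siESRP and 2137 in siGFP. Of these 5 genes 3 were called higher, beside 10.9% of all rows and 15.7% of the brighter rows described below. The summed intensity of the 5 genes was 23981 to 24852 in siESRP against 20992 to 22136 in siGFP. Means were under 50 in both groups for 3 of 5 leukocyte markers (PTPRC, CD3E and LCP1), 3 of 5 endothelial markers (PECAM1, TEK and EMCN) and 2 of 6 fibroblast markers (DCN and LUM). Brighter were CD68, at means of 747 in siESRP and 551 in siGFP, and CDH5, at 324 and 241. Both were called higher (limma adjusted p = 0.0141 and 0.0333). COL1A1, at 182 in siESRP and 252 in siGFP, and the dim TEK were called lower (adjusted p = 0.00649 and 0.0118). Summed, these lists read 821 to 1041, 392 to 479 and 372 to 442 in siESRP, against 652 to 746, 316 to 376 and 466 to 537 in siGFP, and the part of these markers in the results was not tested. Intensities below are quantile-normalized values on a linear scale, and differences are on the log2(value + 1) scale.

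Transcripts of part of the list were less abundant after ESRP depletion, and none were called more abundant. Of 39 measured genes, 13 fell in siESRP and 0 rose (limma, adjusted p under 0.05 over all rows), and 26 did not pass. Over all 18495 rows, 9.31% were called lower and 10.9% higher, and among the 8171 rows at least as bright as the dimmest measured gene of the list, 15.1% were called lower and 15.7% higher. These 8171 rows are called the bright rows below, and they were not matched to the brightness of the list. For the list the share called lower was 33.3%. The list was chosen with earlier results of these data known, so its difference from all rows was not tested. The log2 difference was negative in 31 of 39 genes, a share of 79.5%, where 53.6% of the bright rows were negative. The median of the list was -0.15 on the log2 scale, against -0.02 over all rows. The arrays of the groups did not overlap in 16 genes that were lower in siESRP and in 1 that was higher. Over all rows, dim ones included, 12% and 12.7% have such separation, and this share was not taken over the bright rows alone. Fewer cells in mitosis and less of these transcripts per cell cannot be told apart in RNA from a whole culture.

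Most of these decreases were small. Only CCNB2 differed by more than 1.5-fold, and the other 12 that fell lay between 1.17-fold and 1.35-fold lower. The count rested on the scaling between arrays: 7 genes were called lower with each array scaled to a common median and 1 gene, CCNB2, on the deposited scale, where array brightness was left in the spread. The median difference of the list was -0.18 and -0.17 in those settings, where the median over all rows was -0.11 and -0.10.

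**Figure D1:**
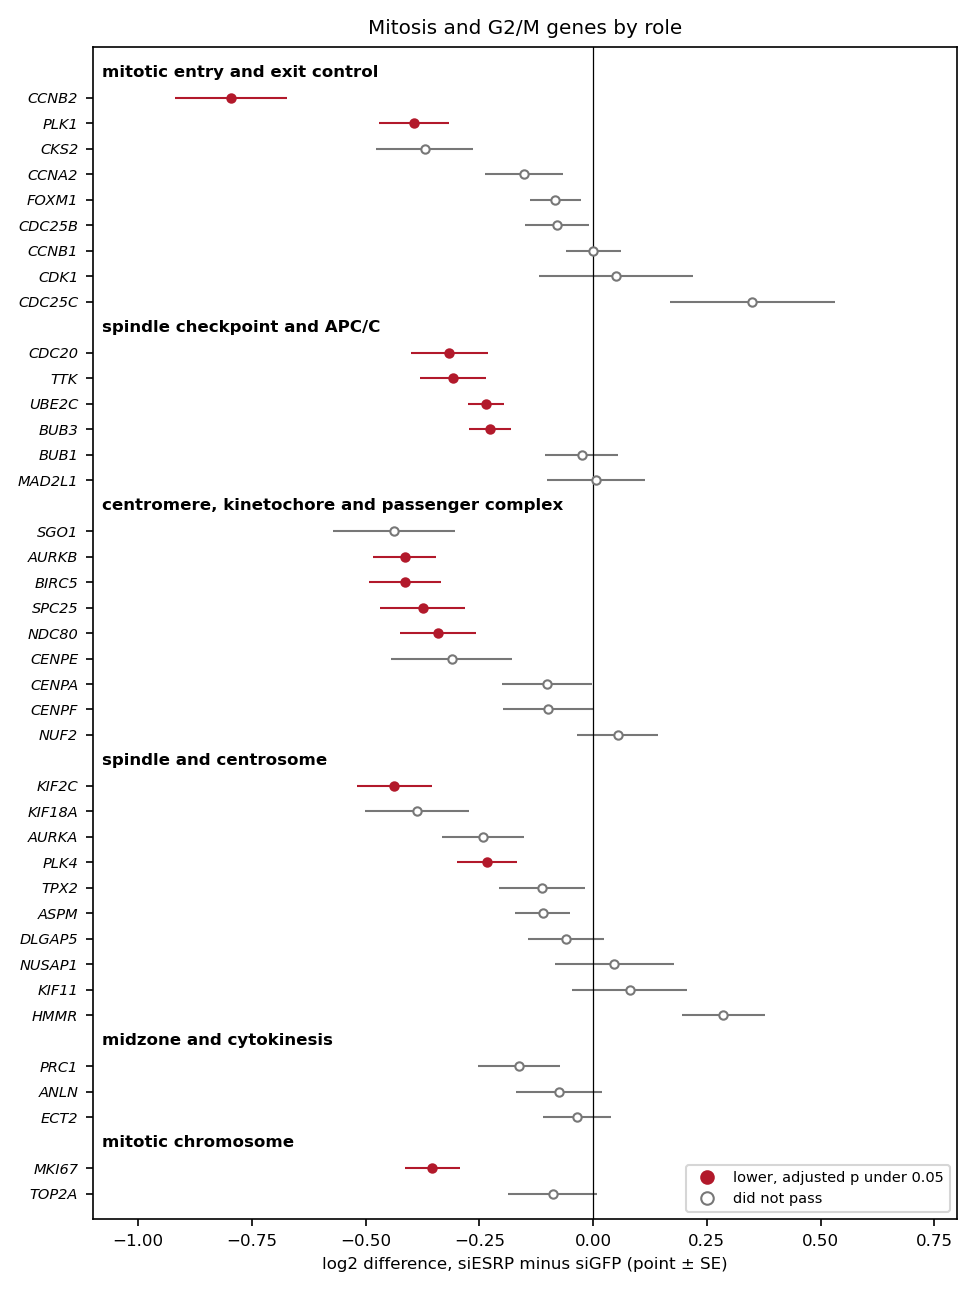
Log2 difference, siESRP minus siGFP, of each measured gene (point ± SE, n = 4 arrays each), grouped by role; filled points passed the limma threshold and open points did not. All 13 filled points lie left of 0, led by CCNB2 at -0.80.

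Among the cyclins, kinases and transcription factor that drive entry into mitosis, 2 of 9 measured genes fell. This share of 22.2% is near the 15.1% of bright rows called lower. CCNB2, which encodes cyclin B2, read 1085, 1212, 1185 and 1189 in siESRP, against 1657, 2394, 1868 and 2277 in siGFP. The groups were far apart, and the 4 control arrays spread more widely than the siESRP arrays. CCNB2 was 1.74-fold lower (log2 difference -0.80 ± 0.12 SE, limma adjusted p = 0.00490), and it was the only gene of the list to pass in every alternative tried. PLK1, the polo-like kinase that promotes entry into and passage through mitosis, read 2029, 2170, 1762 and 2184 in siESRP and 2706, 2639, 2550 and 2770 in siGFP. All 4 siESRP arrays lay below all 4 controls, with siESRP replicate 3 lowest (1.31-fold lower, adjusted p = 0.0120; adjusted p = 0.113 on the deposited scale).

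Cyclin B1 and CDK1 did not pass. CCNB1, cyclin B1, read 3782, 3499, 3826 and 3884 in siESRP and 3776, 3561, 4093 and 3569 in siGFP, so the groups lay on top of each other (log2 difference 0.00 ± 0.06 SE, adjusted p = 1). CDK1 itself read 1220, 1361, 778 and 1012 in siESRP and 983, 1090, 984 and 1076 in siGFP. Its siESRP arrays fell on both sides of the controls, 2 above and 1 well below them (log2 difference 0.05 ± 0.17 SE, adjusted p = 0.885). Relative to the siGFP mean, the log2 ratio of CCNB2 over CCNB1 was -0.92, -0.64, -0.80 and -0.82 on the siESRP arrays, against -0.30, 0.31, -0.25 and 0.24 on the siGFP arrays.

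CCNA2, cyclin A2, which acts from DNA replication into early mitosis, read 1646, 1488, 1750 and 1672 in siESRP against 1591, 1959, 1968 and 1779 in siGFP (log2 difference -0.15 ± 0.09 SE, adjusted p = 0.279). Its groups overlapped through the low siGFP replicate 1. FOXM1, the transcription factor of G2 and M genes, read 1457, 1530, 1445 and 1390 in siESRP against 1491, 1574, 1451 and 1655 in siGFP (log2 difference -0.08 ± 0.06 SE, adjusted p = 0.364). These values overlapped as well. CKS2, a small subunit of CDK complexes, averaged 731 ± 87.3 in siESRP and 943 ± 87.9 in siGFP (SD, n = 4 each). It missed the threshold at an adjusted p of 0.0511, although its groups did not overlap. The CDK-activating phosphatases CDC25B and CDC25C had log2 differences of -0.08 and 0.35, neither of which passed (adjusted p = 0.493 and 0.237).

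**Figure D2:**
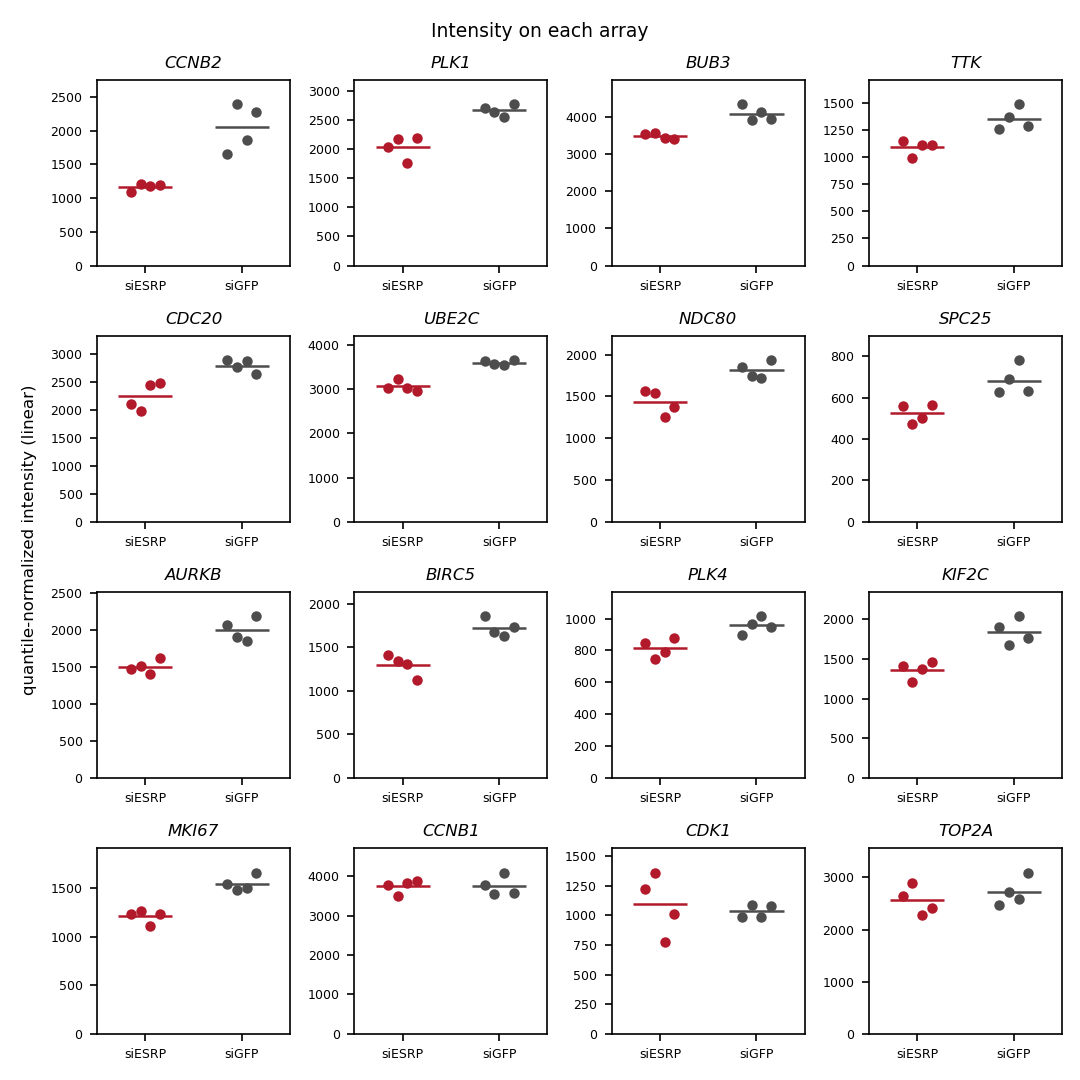
Quantile-normalized intensity on each array (points) with the group mean (line) for the 13 genes that fell and for CCNB1, CDK1 and TOP2A, siESRP left and siGFP right, on linear axes from 0. Groups are separate in each of the 13 genes and overlap in the last 3 panels.

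Promoters are shown for cyclin B2 and cyclin B1, whose transcripts behaved differently, and for the other genes among the 3 with the smallest p, AURKB and MKI67. The sequences run from 250 bases before to 50 after the annotated start in RefSeq on GRCh38.p14, written along the gene's own strand. Capitals mark TTTGAA (or TTCAAA, its reverse), TTCGAA, which reads the same on both strands, and CCAAT (or ATTGG). The first pair are forms of the cell cycle genes homology region, known as CHR, which the MuvB-based complexes contact, and CCAAT is the core letters of NF-Y sites.
CCNB2, chr15:59104896-59105195, plus strand: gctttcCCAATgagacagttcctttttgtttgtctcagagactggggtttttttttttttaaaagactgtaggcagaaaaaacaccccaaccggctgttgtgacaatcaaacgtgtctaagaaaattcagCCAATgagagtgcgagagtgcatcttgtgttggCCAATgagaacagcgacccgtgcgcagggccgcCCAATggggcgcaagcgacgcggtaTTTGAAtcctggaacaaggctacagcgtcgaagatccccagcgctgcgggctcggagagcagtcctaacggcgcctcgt
CCNB1, chr5:69166900-69167199, plus strand: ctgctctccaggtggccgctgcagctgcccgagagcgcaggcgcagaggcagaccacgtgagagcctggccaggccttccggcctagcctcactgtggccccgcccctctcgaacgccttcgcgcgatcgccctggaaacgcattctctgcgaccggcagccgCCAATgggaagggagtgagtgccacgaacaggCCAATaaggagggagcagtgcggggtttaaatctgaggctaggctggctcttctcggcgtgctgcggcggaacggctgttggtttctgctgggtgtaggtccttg
AURKB, chr17:8210176-8210475, minus strand: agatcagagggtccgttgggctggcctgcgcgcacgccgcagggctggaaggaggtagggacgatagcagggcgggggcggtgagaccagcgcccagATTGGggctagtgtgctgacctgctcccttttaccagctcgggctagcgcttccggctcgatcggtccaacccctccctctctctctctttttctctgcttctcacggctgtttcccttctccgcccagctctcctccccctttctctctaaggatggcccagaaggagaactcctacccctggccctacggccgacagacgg
MKI67, chr10:128126374-128126673, minus strand: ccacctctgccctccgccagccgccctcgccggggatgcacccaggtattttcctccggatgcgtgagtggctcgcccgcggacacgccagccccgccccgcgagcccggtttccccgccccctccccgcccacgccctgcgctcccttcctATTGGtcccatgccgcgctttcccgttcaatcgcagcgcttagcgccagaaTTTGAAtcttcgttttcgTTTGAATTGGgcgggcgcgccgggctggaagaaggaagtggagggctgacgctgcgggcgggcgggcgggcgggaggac

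The CCNB2 window holds TTTGAA once, 29 bases before the start, and CCAAT 4 times. The MKI67 window holds TTTGAA 2 times, at -47 and -29, the second sharing 1 base with an ATTGG. CCNB1 has CCAAT 2 times and neither TTTGAA nor TTCGAA in this window, and AURKB has 1 ATTGG. Other forms of the CHR were not searched, and the CCNB1 window holds tttaaa, which was not among the letters sought. The missing letters therefore do not mean that CCNB1 or AURKB lacks a CHR. Of the listed genes, 38 had a promoter entry (none for FOXM1, BUB3, TTK, UBE2C, BIRC5, AURKA and TPX2). TTTGAA was present in 28 of these 38, a share of 73.7%, where 15.4% of 27305 promoters of the same length hold it. From 50 bases before the start to the end of the window it lay in 22 of 38, or 57.9%, against 4.67% of all promoters. CCAAT lay in 29 of 38, or 76.3%, against 35.7% of all, and TTCGAA in 4 of 38, or 10.5%, against 1.45%.

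TTTGAA or TTCGAA was found in 7 of 9 promoters of genes that fell and in 18 of 23 of measured genes that did not pass (77.8% and 78.3%). CCAAT was found in 6 of 9 and in 18 of 23 (66.7% and 78.3%). A match is a description of the window and not a binding site.

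**Figure D3:**
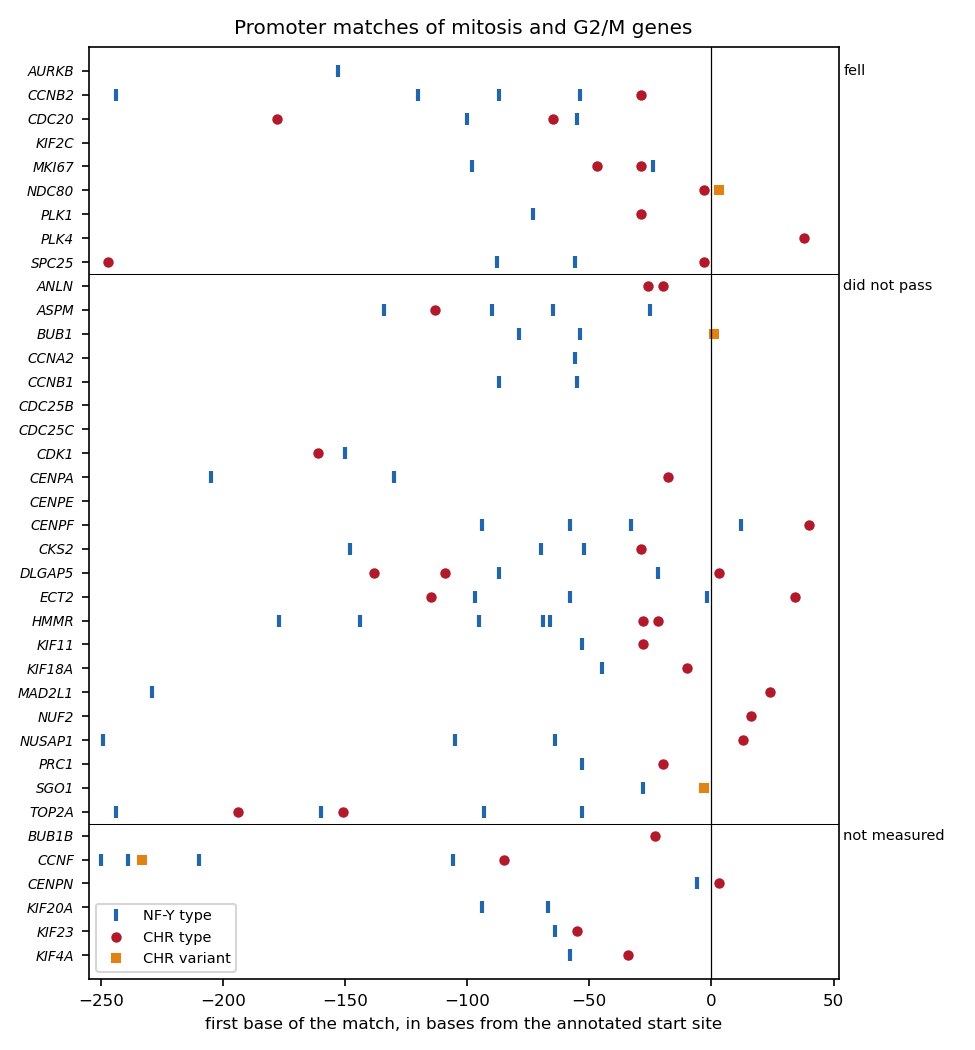
Position of each match in the 38 promoters, in bases from the annotated start site (0), for the NF-Y type letters CCAAT, the CHR type letters TTTGAA and the CHR variant TTCGAA, on both strands. Genes that fell are at the top, genes that did not pass below them and genes not measured at the bottom; in 22 of the 38 promoters a CHR type match begins no more than 50 bases before the start or after it.

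In the spindle checkpoint and APC/C group, 4 of 6 measured genes were lower, or 66.7%, beside 15.1% of the bright rows. With median scaling the count was 1 of 6, UBE2C. BUB3, a WD-repeat protein that carries checkpoint kinases to kinetochores, read 3545, 3565, 3428 and 3401 in siESRP, against 4336, 3911, 4123 and 3946 in siGFP. No siESRP array reached the lowest control, yet the change was only 1.17-fold (log2 difference -0.23 ± 0.05 SE, limma adjusted p = 0.0144). TTK, the kinase MPS1 that starts the checkpoint signal, read 1151, 989, 1114 and 1107 in siESRP, against 1263, 1367, 1487 and 1286 in siGFP. It was 1.24-fold lower without overlap (adjusted p = 0.0245). With median scaling the adjusted p was 0.157 for BUB3 and 0.0799 for TTK.

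CDC20, which is both the target of the checkpoint and the mitotic activator of the APC/C, read 2102, 1976, 2443 and 2475 in siESRP, against 2886, 2763, 2865 and 2640 in siGFP. Its siESRP arrays were uneven, with replicates 1 and 2 lowest, and it was 1.24-fold lower (adjusted p = 0.0388). Leaving out single arrays gave adjusted p of 0.0352 to 0.102 for CDC20 and ended its call in 6 of 8 cases, as did median scaling (adjusted p = 0.0854). UBE2C, the ubiquitin-conjugating enzyme that starts chains on APC/C substrates, read 3031, 3237, 3030 and 2973 in siESRP, against 3653, 3578, 3550 and 3660 in siGFP. The spread within each group was small, so a 1.18-fold decrease passed (log2 difference -0.24 ± 0.04 SE, adjusted p = 0.00745). The kinase BUB1, which recruits the checkpoint to kinetochores, read 1627, 1409, 1677 and 1684 in siESRP and 1495, 1682, 1762 and 1567 in siGFP, with full overlap (adjusted p = 0.879). MAD2L1, the inhibitor that sequesters CDC20, averaged 1058 ± 98.0 in siESRP and 1056 ± 128 in siGFP (SD, n = 4 each, adjusted p = 0.993).

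At the centromere, 4 of 9 measured genes fell, or 44.4%, beside 15.1% of the bright rows. The median log2 difference of the group was -0.34. AURKB, the kinase that corrects faulty attachments, read 1471, 1508, 1409 and 1617 in siESRP, against 2065, 1911, 1852 and 2182 in siGFP. BIRC5, also known as survivin, which anchors AURKB at the centromere, read 1408, 1347, 1309 and 1127 in siESRP, against 1854, 1673, 1634 and 1737 in siGFP. Neither gene overlapped between the groups, and both were 1.33-fold lower (log2 difference -0.41 ± 0.07 SE with limma adjusted p = 0.00684 for AURKB, and -0.41 ± 0.08 SE with adjusted p = 0.0117 for BIRC5). A second BIRC5 row was near background, with means of 18.4 in siESRP and 15.7 in siGFP (adjusted p = 0.661), and averaging the rows ended the BIRC5 call (adjusted p = 0.698).

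In the NDC80 complex, the main link between kinetochore and microtubule, NDC80 and SPC25 were called lower and NUF2 was not. The difference between these subunits was not tested. NDC80 read 1571, 1540, 1255 and 1376 in siESRP, against 1850, 1740, 1727 and 1933 in siGFP (1.27-fold lower, adjusted p = 0.0288). SPC25 read 561, 474, 503 and 563 in siESRP, against 629, 691, 780 and 630 in siGFP (1.30-fold lower, adjusted p = 0.0300). In both genes every siESRP array lay below every control. Leaving out single arrays ended each call in 4 of 8 cases, with adjusted p up to 0.0776 for NDC80 and 0.0727 for SPC25. Median scaling ended both calls (adjusted p = 0.0643 and 0.0821), as did the replicate number as a block (0.071 and 0.12). AURKB and BIRC5 passed in both of these settings. NUF2, a partner of NDC80 and SPC25 in the NDC80 complex, averaged 737 ± 75.7 in siESRP and 709 ± 52.4 in siGFP (SD, n = 4 each, adjusted p = 0.739). The fourth subunit, SPC24, is outside the list and averaged 785 in siESRP and 836 in siGFP (adjusted p = 0.508). Relative to the siGFP mean, the log2 ratio of NDC80 over NUF2 was -0.34, -0.10, -0.53 and -0.60 on the siESRP arrays, against 0.09, 0.04, -0.21 and 0.07 on the siGFP arrays, so these overlapped.

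SGO1, the shugoshin that protects centromeric cohesion, averaged 504 ± 68.8 in siESRP and 683 ± 99.4 in siGFP. Its log2 difference of -0.44 was close to that of AURKB, with a wider spread between arrays, and did not pass (adjusted p = 0.0622). CENPE, a kinetochore motor, had a log2 difference of -0.31 with overlapping groups (adjusted p = 0.155). CENPA, the histone of centromeric chromatin, and CENPF, a large kinetochore protein, each had -0.10 and did not pass.

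Of 10 spindle and centrosome genes 2 fell, a share of 20% that is near the 15.1% of bright rows called lower. KIF2C, the microtubule-depolymerizing kinesin MCAK, read 1408, 1211, 1373 and 1457 in siESRP, against 1903, 1679, 2035 and 1762 in siGFP. It was 1.35-fold lower with no overlap (log2 difference -0.44 ± 0.08 SE, limma adjusted p = 0.0111). PLK4, the kinase of centriole duplication, read 849, 746, 788 and 875 in siESRP, against 898, 967, 1013 and 949 in siGFP (1.18-fold lower, adjusted p = 0.0471). The gap between the highest siESRP array and the lowest control was small, and leaving out any of 7 arrays ended the PLK4 call, siESRP replicate 4 being the exception (adjusted p of 0.0448 to 0.108).

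AURKA, the kinase of spindle poles, read 2146, 2354, 1807 and 2064 in siESRP, against 2333, 2515, 2337 and 2687 in siGFP, overlapping through siESRP replicate 2 (log2 difference -0.24 ± 0.09 SE, adjusted p = 0.111). KIF18A, a kinesin that dampens chromosome oscillations, averaged 725 ± 97.2 in siESRP and 944 ± 80.3 in siGFP without overlap and stood just outside the threshold (adjusted p = 0.0537). HMMR, a spindle assembly factor, had the opposite sign, averaging 687 ± 59.0 in siESRP and 564 ± 52.4 in siGFP. It was the 1 gene of the list whose siESRP arrays all lay above the controls, and it did not pass (log2 difference 0.29 ± 0.09 SE, adjusted p = 0.0683). The AURKA activator TPX2 (-0.11), the bipolar spindle motor KIF11 (0.08), the microtubule-binding proteins NUSAP1 (0.05) and DLGAP5 (-0.06) and the spindle pole protein ASPM (-0.11) had small log2 differences that did not pass.

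None of the 3 measured midzone and cytokinesis genes passed. PRC1, which bundles midzone microtubules, averaged 1378 ± 119 in siESRP and 1543 ± 144 in siGFP (log2 difference -0.16, limma adjusted p = 0.271). ECT2, the activator of RhoA at the division plane, and ANLN, a scaffold of the contractile ring, had log2 differences of -0.04 and -0.07 (adjusted p = 0.8 and 0.648). RHOA itself, outside the list, averaged 4728 in siESRP and 4628 in siGFP (adjusted p = 0.620).

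MKI67, the Ki-67 antigen that coats mitotic chromosomes and marks cycling cells, read 1241, 1267, 1110 and 1232 in siESRP, against 1542, 1488, 1502 and 1663 in siGFP. The arrays of the groups were well apart, with siESRP replicate 3 lowest, and MKI67 was 1.28-fold lower (log2 difference -0.35 ± 0.06 SE, adjusted p = 0.00711; adjusted p = 0.0895 on the deposited scale). TOP2A, the topoisomerase that untangles sister chromatids, read 2648, 2884, 2288 and 2410 in siESRP and 2471, 2727, 2585 and 3093 in siGFP. Its values overlapped throughout (log2 difference -0.09 ± 0.10 SE, adjusted p = 0.594).

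The median over the 39 genes, relative to the siGFP mean of each gene, was -0.17, -0.20, -0.25 and -0.13 on the siESRP arrays, against -0.07, 0.01, 0.02 and 0.02 on the siGFP arrays. Over the 8171 bright rows these medians lay between -0.02 and 0.01. Between 29 and 32 of the 39 genes were below their siGFP mean on each siESRP array, and 26, 19, 18 and 17 were on the siGFP arrays. SiESRP replicates 2 and 3 each gave the lowest value of their group in 16 genes, and siGFP replicate 1 gave the lowest of its group in 20. The median coefficient of variation was 8.86% in siESRP, with a range of 2.37% for BUB3 to 23.3% for CDK1. In siGFP it was 7.49%, ranging from 1.52% for UBE2C to 24.0% for CDC25C.

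**Figure D4:**
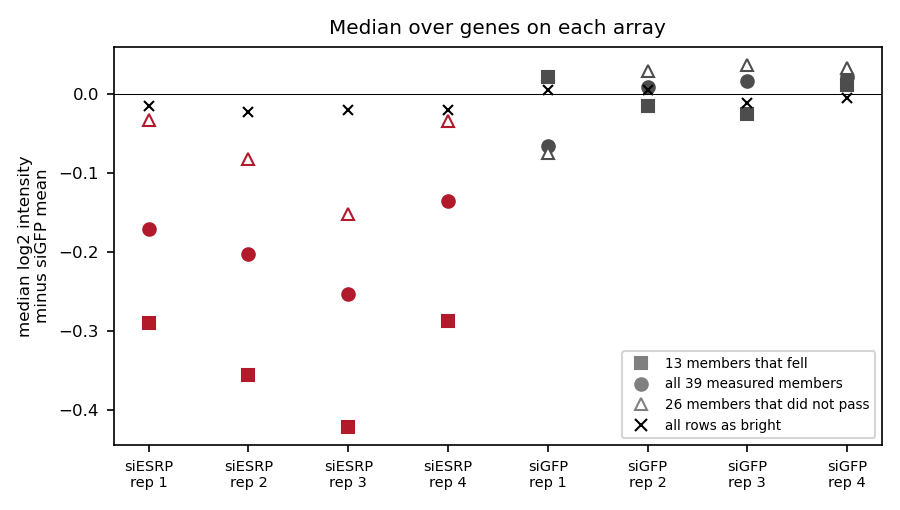
Median log2 intensity minus the siGFP mean of each gene, on each of the 8 arrays, over the 13 genes that fell (squares), all 39 measured genes (circles), the 26 that did not pass (triangles) and all rows at least as bright as the dimmest gene of the list (crosses). The circles of the 4 siESRP arrays lie between -0.25 and -0.13 and those of the siGFP arrays between -0.07 and 0.02, while the crosses stay near 0; the squares were selected by their difference.

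A wider set of 133 mitotic genes outside the list, of which 100 were measured, held 20 genes that fell and 8 that rose in siESRP. These shares of 20% and 8% stand beside 15.1% and 15.7% of the bright rows, and the difference between the gene lists was not tested. The bright rows were cut at the dimmest gene of the list, and some of these outside genes, such as CENPH and CENPM, were dimmer. The median log2 difference of the 100 genes was -0.09. One of them, the APC/C subunit ANAPC2, lay below 0 on all 8 arrays and was not measurable.

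The other subunits of the chromosomal passenger complex fell as AURKB and BIRC5 did. INCENP, its scaffold, read 539, 608, 576 and 623 in siESRP, against 819, 923, 819 and 974 in siGFP (log2 difference -0.59 ± 0.08 SE, limma adjusted p = 0.00264). CDCA8, or borealin, read 584, 588, 628 and 800 in siESRP, against 849, 884, 871 and 843 in siGFP (log2 difference -0.42, adjusted p = 0.0297). Both were separate between the groups, though siESRP replicate 4 of CDCA8 came close to the controls. CDCA8 was picked out after its values were seen, as were SPC24, ESPL1, E2F1, LIN9, RHOA and ANAPC2.

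Of 11 other APC/C genes 2 fell, 1 rose and 8 did not pass, so that 18.2% were lower, near the 15.1% of the bright rows. UBE2S, the enzyme that extends the ubiquitin chains UBE2C starts, read 714, 684, 759 and 580 in siESRP, against 1274, 1305, 1174 and 1100 in siGFP, and was 1.78-fold lower (adjusted p = 0.00167). A second UBE2S row gave a log2 difference of -0.86, close to the first. FZR1, the APC/C activator of late mitosis and G1, averaged 718 in siESRP and 919 in siGFP (adjusted p = 0.0207), while the APC/C subunit CDC27 rose (log2 difference 0.20, adjusted p = 0.0476). Of 15 cohesin, condensin and separase genes 4 fell and 11 did not pass (26.7% lower). PTTG1, the securin that holds separase inactive, read 1109, 1004, 1266 and 1194 in siESRP, against 2213, 1777, 2103 and 1938 in siGFP. It was 1.76-fold lower with no overlap (adjusted p = 0.00178), though PTTG1 has near-identical copies in the genome and its row is uncertain. The separase ESPL1, the cohesion factor CDCA5 and the condensin subunit NCAPH2 had log2 differences of -0.45, -0.56 and -0.80 (adjusted p = 0.00584, 0.000670 and 0.00199).

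Among other kinetochore genes 5 of 26 fell and 3 rose, shares of 19.2% and 11.5% that are near the 15.1% and 15.7% of the bright rows. MIS18A, which prepares centromeres to receive CENPA, averaged 2143 in siESRP and 3211 in siGFP (adjusted p = 0.00310), and CENPI, a subunit of the inner kinetochore, rose to 920 in siESRP, against 654 in siGFP (adjusted p = 0.00526). In the spindle list 3 of 17 genes fell and 1 rose (17.6% and 5.88%), beside the same 15.1% and 15.7%. TUBG1, or gamma-tubulin, the augmin subunit HAUS8 and the stress-responsive kinase PLK3 were named by rank. TUBG1 and HAUS8 fell (log2 differences -0.46 and -0.42), and PLK3 rose (0.69, adjusted p = 0.00553). Of 11 entry regulators, PKMYT1, an inhibitory kinase of CDK1, fell (log2 difference -0.35, adjusted p = 0.0314) and the other 10 did not pass. In the cytokinesis list 2 of 9 genes fell, or 22.2%, and 0 rose. These were VPS4A, the ATPase of membrane abscission, and CEP55, its midbody organizer, lower by 0.23 and 0.18 on the log2 scale (adjusted p = 0.00916 and 0.0462).

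Upstream regulators of the mitotic program moved both ways, with 3 of 11 measured genes lower and 3 higher. These shares of 27.3% each stand beside 15.1% and 15.7% of the bright rows, and the difference was not tested. MYBL2, the B-MYB subunit that turns MuvB into an activator, read 2115, 2229, 2114 and 2143 in siESRP, against 2689, 2766, 2598 and 2787 in siGFP. The groups were tight and apart (log2 difference -0.33 ± 0.04 SE, adjusted p = 0.00187). E2F1 fell too (log2 difference -0.45, adjusted p = 0.0220), as did the MuvB subunit LIN9 (-0.24, adjusted p = 0.0468). CDKN1A, which encodes the CDK inhibitor p21, read 2195, 2563, 2134 and 2115 in siESRP, against 821, 1562, 1072 and 1066 in siGFP (log2 difference 1.03 ± 0.19 SE, adjusted p = 0.00952). RB1, the retinoblastoma protein gene, and RBBP4, a histone-binding subunit shared by MuvB and other complexes, rose by log2 differences of 0.47 and 0.36 (adjusted p = 0.00137 and 0.00943). E2F4, the E2F of the DREAM complex, averaged 859 in siESRP and 991 in siGFP and did not pass (log2 difference -0.21, adjusted p = 0.153). RBL2 had no row of its own symbol alone.

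**Figure D5:**
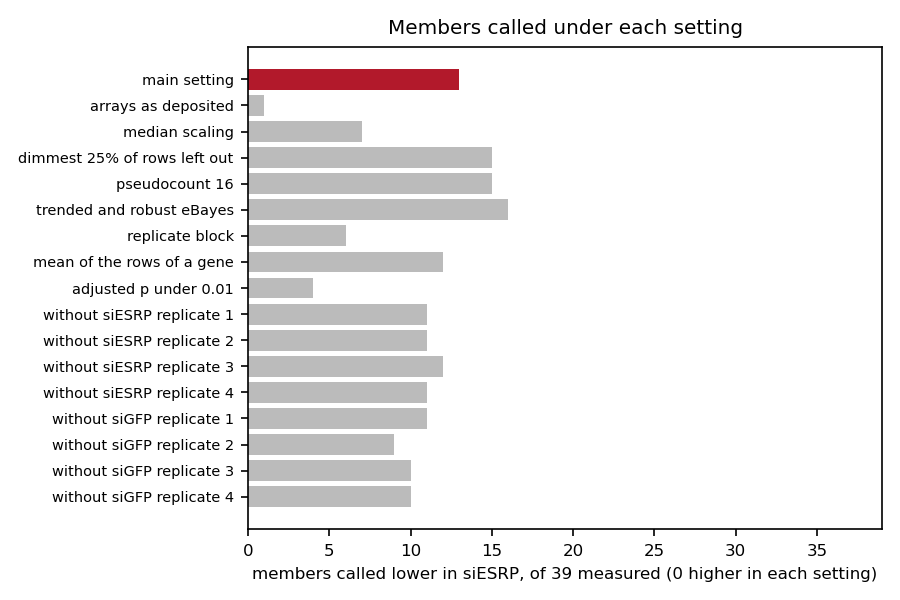
Number of the 39 measured genes called lower in siESRP (limma, adjusted p under 0.05 unless stated) in the setting used in the text and in each of 16 alternatives, on an axis from 0 to 39. The setting used in the text gives 13, leaving out single arrays gives 9 to 12, and the deposited scale gives 1; no setting called a gene higher.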

How the data were processed

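The authors deposited 1 table of intensity values on a linear scale, with 18495 gene-level rows and 8 arrays. How background, probe summary and scaling were handled is not given in the sources used here. Deposited array medians ran from 233 to 286, and 2.70% to 4.02% of values per array were below 0. Quantile normalization was applied to the linear values. Negative results were then floored at 0, a pseudocount of 1 was added before log2, and groups were compared with limma 3.58.1 in R 4.3.3 (lmFit and eBayes, no covariate, two-sided, Benjamini-Hochberg adjustment over all rows, threshold 0.05). No filter on low values was used. Symbols came from GEO's platform annotation and were updated through Entrez IDs to RefSeq of GRCh38.p14: 14579 rows had 1 symbol, 2847 several and 1069 none. Where a gene had more than 1 row, its brightest row was used. The array values name no build, so rows have no coordinates. The number of arrays limits the precision.

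Members, roles, pathway lists and tests were chosen with earlier results of these data known. Values on every array were given for each gene called and for CCNB1, CDK1, CCNA2, PLK1, FOXM1, MKI67, TOP2A, AURKA, CDC20 and BUB1; of each pathway list, up to 3 called genes with the smallest p were named, with CDKN1A, RBL2, E2F4 and MYBL2. On simulated data of 18495 rows the test called 44 of 100 rows that differed 1.5-fold, 79 of 100 that differed 2-fold, and 8 rows with no difference. Far fewer rows differed there than were called in the data, which makes the adjusted threshold stricter, so these rates do not carry over. Differences below 1.5-fold, where most genes that fell lay, were not simulated. Alternatives were the deposited scale, median scaling, a pseudocount of 16, removal of the dimmest 25% of rows, eBayes with trend and robust options, a replicate block, a threshold of 0.01, the mean of a gene's rows and leaving out each array.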

Additional observations from a re-analysis of the deposited data

Results flagged for a closer look

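For 6 of the 80 sets of 4 arrays examined, the gap between an extreme array and its neighbour, as a ratio of the whole range, exceeded Dixon's critical value. Chance alone flags about 1 in 20 sets, or 4.0. In siESRP this was CDC25C, with replicate 3 high (ratio 0.840). In siGFP it was CDC25B with replicate 4 high (0.870), CENPF with replicate 3 high (0.842), KIF18A with replicate 4 high (0.954), DLGAP5 with replicate 4 high (0.911) and HMMR with replicate 1 low (0.874). None of these 6 genes passed the limma threshold. KIF18A averaged 944 in siGFP, where replicate 4 read 1064 and the others 900, 904 and 907. HMMR read 486 on siGFP replicate 1 and 583 to 597 on the other controls.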

How the results depend on the processing

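Of 39 measured genes, 13 were called lower. On the deposited scale 1 was, with median scaling 7, with the replicate number as a block (replicate block) 6, and at a threshold of 0.01 it was 4; leaving out single arrays gave 9 to 12, and 0 were called higher in any alternative. All 13 kept their sign in all 16 alternatives. The difference cannot change with the dimmest rows removed, the trend and robust options, the replicate block or the threshold of 0.01. Of the 13, the mean of a gene's rows could change it only for BIRC5. Outside the list, 20 were lower and 8 higher; these were 9 and 1 on the deposited scale, 12 and 5 with the replicate block and 10 lower at 0.01. Leaving out single arrays gave 12 to 18 lower, with 13 without siGFP replicate 2, 12 without siESRP replicate 1 and 13 without siESRP replicate 2. ESRP1 was called in all. Of the 13, 8 also passed without any single array. PLK4 was lost without each array but siESRP replicate 4, CDC20 without each siGFP array and siESRP replicates 1 and 2, NDC80 without siGFP replicates 1, 2 and 4 and siESRP replicate 4, SPC25 without siGFP replicates 2 and 3 and siESRP replicates 2 and 3, and TTK without siGFP replicate 2 or siESRP replicate 4. CKS2 passed without replicate 2 of either group, KIF18A without siESRP replicate 3 and CENPE without siGFP replicate 1. Deviations of same-numbered arrays correlated at 0.051, 0.053, -0.181 and 0.027. SiESRP replicates 2 and 4 correlated highest with the siGFP array of their own number, and replicates 1 and 3 did not. These values cannot tell whether the numbers mark pairs or batches, and the labels do not say. The causes were not tested.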

Other observations

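Over the bright rows, deviations from the siGFP mean correlated at 0.23 between replicates 1 and 3 and at 0.34 between replicates 2 and 4, and at -0.85 between replicates 1 and 2. CCNB2 read 1657 and 1868 on replicates 1 and 3 against 2394 and 2277 on replicates 2 and 4. In siESRP these correlations lay between -0.60 and 0.15. Deviations from the mean of the same 4 arrays correlate below 0 on average by construction, so the negative values are partly built in, and independence of the arrays was not tested. The labels give no batch for the arrays.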
